A study of Mus musculus with 7 samples.

Results

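Toll-like receptors are membrane proteins that recognise conserved molecules of microbes and products of damaged tissue. Those on the cell surface bind mainly bacterial lipids, lipoproteins and flagellin, whereas another set in endosomes binds nucleic acids. In microglia, the resident macrophages of the brain, their engagement recruits the adaptor MyD88 and IRAK kinases and leads to activation of NF-kB and to cytokine production. The 9 genes described here are the surface receptors Tlr1, Tlr2, Tlr4, Tlr5 and Tlr6, the co-receptors Cd14, Ly96 and Cd180, and the adaptor Myd88. They were picked out by symbol in GENCODE M21. Gene positions are those of that annotation on GRCm38, and all 9 were found among the 55401 Ensembl identifiers of the count table.

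Microglia were enriched with CD11b beads from the dorsal hippocampus of C57BL/6 mice aged 6 to 8 weeks, described as male. The dorsal dentate gyrus of all mice was injected with AAV-RAM-Cre, in which the RAM promoter expresses Cre in neurons activated by an experience (engram neurons). The control group also received AAV-Dio-EYFP, a Cre-dependent virus encoding a fluorescent protein (EYFP, 4 libraries), and the other group AAV-Dio-Atg7-Flag, encoding the autophagy protein ATG7 with a Flag tag (ATG7, 3 libraries). The comparison asks how microglia differ when the engram neurons, not the microglia, overexpress ATG7. The labels do not state whether each library came from 1 mouse, so the p-values measure the spread between these libraries.

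Library totals ranged from 35934210 to 55217119 counts, and levels are given as CPM, the usual unit of counts relative to the library total. Atg7, the targeted gene, was at 35.6 ± 1.68 CPM (n = 4, SD) in EYFP and 34.9 ± 2.76 CPM (n = 3, SD) in ATG7, which does not check the labels, because the overexpressing cells are neurons. The library labelled EYFP 3 goes against the description as male, with 938.5 CPM of Xist against 0.151 to 0.574 CPM in the other 6. It also held 27.6 CPM of the Y-linked Ddx3y, against 121 to 169 CPM in the others. Its weight is shown by values without it: the 9 genes had a median log2 fold change of 0.22 in place of 0.20, Tlr1 had 0.30, Tlr4 0.18, Ly96 0.22, Cd180 0.29 and Myd88 0.24, and the other 4 are given with their results. The summed level of 10 microglia markers, among them Tmem119 and P2ry12, was 22590 to 27640 CPM in EYFP and 22340 to 27510 CPM in ATG7. The libraries also held choroid plexus transcripts, with 8 markers summing to 54800 to 72300 CPM in EYFP and 46410 to 61140 CPM in ATG7. All 8 had a log2 fold change below 0 (median -0.26), with 0 passing the test and 2 lower at an unadjusted p under 0.05 (edgeR). In a bulk sample, fewer cells of a type and less RNA per cell cannot be told apart.

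All 9 genes were expressed and passed the filter on low counts. Tlr2 was the only one that changed: it was 1.499-fold higher in ATG7 (95% confidence interval 1.30 to 1.73). A gene was taken to change when its Benjamini-Hochberg adjusted p over the 19199 genes tested was under 0.05 (edgeR quasi-likelihood test, two-sided). Across all genes tested, 0.688% rose and 0.755% changed in either direction by this rule. The log2 fold change was above 0 in 8 of the 9 genes, against 49.2% of all genes, and below 0 in Tlr5. The median over the 9 was 0.20, against -0.0037 over all genes. With the choroid plexus markers as a covariate the median of the 9 was 0.11 and the log2 fold changes of Tlr6 and Cd14 also fell below 0, leaving 6 of 9 above it. Without ATG7 3 the median was 0.13. An unadjusted p under 0.05 with a higher level in ATG7 was found for 4 of the 9, Tlr1, Tlr2, Cd180 and Myd88, against 6.27% of all genes. In 2 of them, Tlr2 and Myd88, every ATG7 library was above every EYFP library, as for 6.33% of all genes. The 9 genes were chosen with earlier results of these data known, so these counts are a description, not a test.

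**Figure D1:**
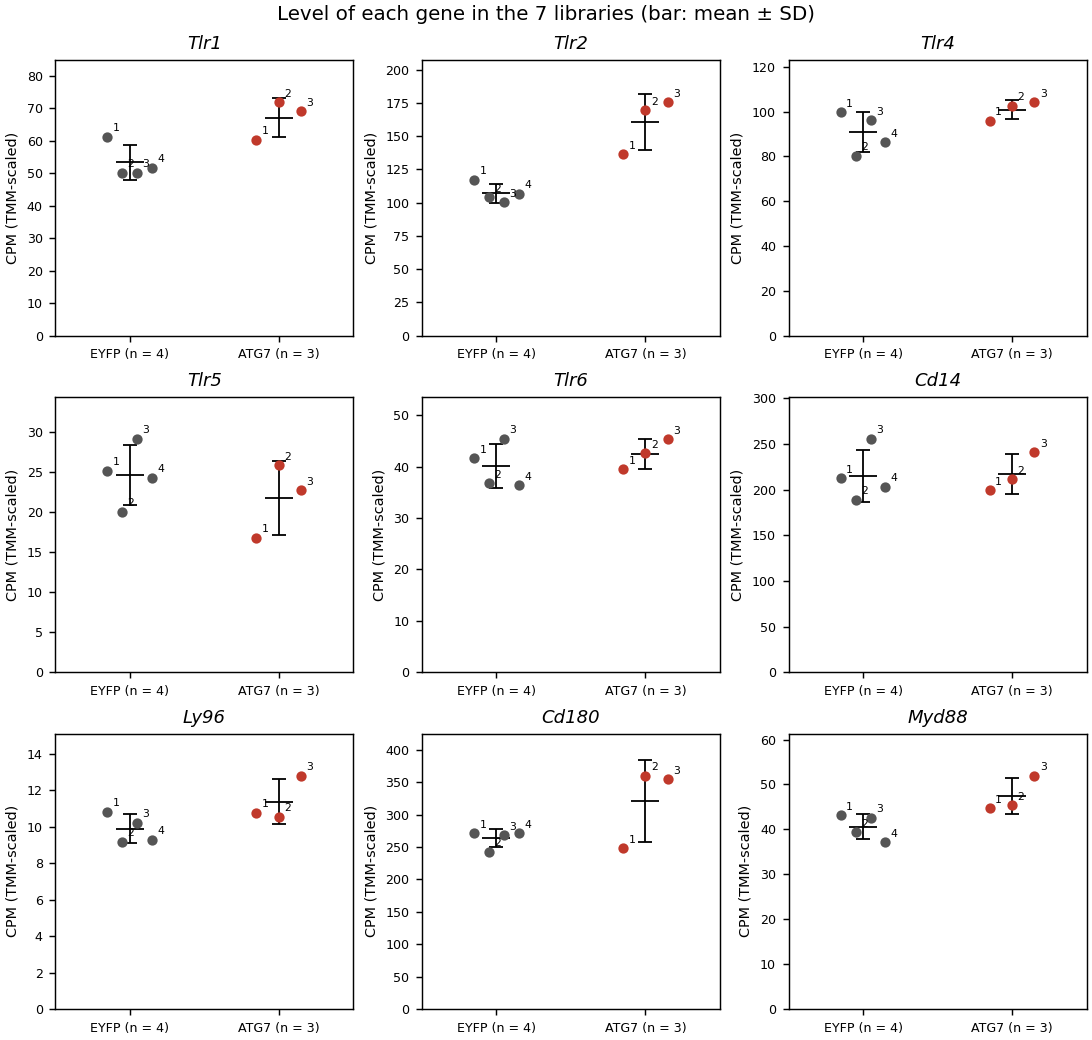
Level of each of the 9 genes in CPM scaled by trimmed means of M values (TMM), 1 panel per gene, with 1 numbered point per library in EYFP (grey, n = 4) and ATG7 (red, n = 3) and a bar for the mean ± SD. The groups do not overlap in the panels of Tlr2 (100.2 to 117 CPM against 136 to 175 CPM) and Myd88 (37.1 to 43.2 CPM against 44.7 to 52.0 CPM), and they overlap in the other 7.

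TLR2 recognises bacterial lipoproteins and works as a heterodimer with TLR1 or TLR6. Tlr2 (ENSMUSG00000027995, chromosome 3, 83836272 to 83841767) was at 117, 104, 100.2 and 106 CPM in EYFP 1 to 4 and at 136, 169 and 175 CPM in ATG7 1 to 3. The lowest ATG7 library therefore lay above the highest EYFP library, and ATG7 2 and 3 stood above ATG7 1. The means were 107 ± 7.24 CPM (n = 4, SD) and 160.4 ± 21.1 CPM (n = 3, SD), which gives a log2 fold change of 0.58 (standard error, SE, 0.0957, edgeR adjusted p = 0.0206). By p-value Tlr2 was the gene of the 9 that ranked first. Without EYFP 3 the log2 fold change was 0.55 (edgeR adjusted p = 0.0411).

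The call for Tlr2 depended on single libraries, although its direction did not. Tlr2 was higher in ATG7 in all 17 alternative analyses, and leaving out 1 library at a time gave an edgeR adjusted p from 0.0112 to 0.126. The edgeR adjusted p was 0.0811 without EYFP 4, 0.103 without ATG7 2 and 0.126 without ATG7 3, at log2 fold changes of 0.58, 0.54 and 0.51. With the choroid plexus markers as a covariate the log2 fold change was 0.48 (edgeR adjusted p = 0.151). Relative to microglia markers, Tlr2 had 4.62, 4.61, 3.63 and 4.52 counts per 1000 marker counts in EYFP 1 to 4, against 6.10, 6.31 and 6.38 in ATG7 1 to 3, and again all ATG7 libraries were above all EYFP libraries. A fit with library sizes taken from these markers, chosen after seeing the data, gave a log2 fold change of 0.53 (edgeR adjusted p = 0.0980).

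Monocytes and neutrophils also express Tlr2, and their markers varied between libraries. The 8 monocyte markers summed to 165 to 225 CPM in EYFP and 188 to 311 CPM in ATG7, of which Fn1, which other cell types also express, made up 131 to 186 and 146 to 248 CPM. Ccr2 was at 17.4 to 23.4 CPM in EYFP and 17.7 to 23.7 CPM in ATG7. Ly6c2 was at 2.75 ± 1.25 CPM (n = 4, SD) and 7.63 ± 5.33 CPM (n = 3, SD) with overlap, and Plac8 did not overlap (1.80 to 4.25 CPM against 4.70 to 11.4 CPM). The 8 neutrophil markers summed to 41.5 to 98.9 CPM in EYFP and to 25.9, 31.6 and 147 CPM in ATG7 1 to 3. None of the 16 markers was at 0 in all libraries, and the part of either cell type in the result was not tested.

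The promoter window of Tlr2 is shown because Tlr2 is the gene that rose, that of Myd88 because its groups did not overlap, and 1 window of Tlr6 as a receptor gene of the family whose interval includes no change. Each is the RefSeq window on GRCm38.p6, 5′ to 3′ on the gene's strand, with 250 bases before the transcription start and 30 after it. Capitals mark matches to the motifs searched.
Tlr2, chr3:83841579-83841858, minus strand: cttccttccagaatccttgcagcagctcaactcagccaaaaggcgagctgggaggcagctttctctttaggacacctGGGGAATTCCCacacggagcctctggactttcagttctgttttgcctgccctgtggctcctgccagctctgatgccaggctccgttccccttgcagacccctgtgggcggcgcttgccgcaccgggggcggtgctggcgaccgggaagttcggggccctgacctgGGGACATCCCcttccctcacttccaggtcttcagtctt
Myd88, chr9:119339989-119340268, minus strand: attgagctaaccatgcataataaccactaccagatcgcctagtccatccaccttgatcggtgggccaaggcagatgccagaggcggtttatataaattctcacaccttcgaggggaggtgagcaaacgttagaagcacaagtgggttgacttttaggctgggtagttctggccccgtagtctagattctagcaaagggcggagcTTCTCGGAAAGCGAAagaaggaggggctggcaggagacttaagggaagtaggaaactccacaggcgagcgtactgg
Tlr6, chr5:64959137-64959416, minus strand: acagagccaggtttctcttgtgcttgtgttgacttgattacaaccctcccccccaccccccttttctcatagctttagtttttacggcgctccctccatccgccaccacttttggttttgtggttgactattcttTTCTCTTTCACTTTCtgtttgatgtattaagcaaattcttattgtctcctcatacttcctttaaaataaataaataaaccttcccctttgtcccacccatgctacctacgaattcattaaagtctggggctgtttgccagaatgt

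The motifs were searched on both strands in windows of 300 bases, 250 before and 50 after the start. They were the core of the interferon-stimulated response element (ISRE, GAAANNGAA), the STAT site GAS (TTCNNNGAA), the NF-kB consensus and PU.1 (GAGGAA). Matches of ISRE and GAS can overlap. Among 32851 windows of all genes, 8.56% held the ISRE letters, 8.30% GAS, 8.46% NF-kB and 28.3% PU.1. RefSeq windows matched 6 of the 9 genes, Tlr1, Tlr2, Tlr5, Tlr6, Cd180 and Myd88, with 9 windows in all. For Tlr1, the window at 64933509 to 64933808 held a PU.1 match and that at 64932650 to 64932949, inside the annotated gene, a GAS match. The Tlr5 and Cd180 windows held none of the motifs. The Tlr2 window held NF-kB matches at 2 places, GGGAATTCCC beginning 172 bases before the start and GGGACATCCC beginning 8 bases before it, and no ISRE, GAS or PU.1 letters. The Myd88 window held an ISRE match beginning 40 bases before the RefSeq start, which overlaps a GAS match, and no NF-kB match. This window also lies inside the annotated gene, whose beginning on the minus strand is at position 119341411. The Tlr6 window printed above held 2 ISRE matches and lies inside the annotated gene. The other Tlr6 window (64959999 to 64960298) spans position 64960097, where the annotated gene begins on the minus strand. It held GAS matches beginning 3 bases before and 7 bases after its start, and no ISRE match. A letter match is a description of the sequence, and binding was not measured.

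TLR1 and TLR6 are the alternative partners of TLR2, for lipoproteins with different numbers of acyl chains, and their genes lie side by side on chromosome 5. Tlr1 (ENSMUSG00000044827, chromosome 5, 64924679 to 64933563) was at 61.2, 50.2, 50.2 and 51.7 CPM in EYFP 1 to 4 and at 60.2, 71.9 and 69.1 CPM in ATG7 1 to 3. The groups overlapped through EYFP 1, which lay above ATG7 1 and well above the other EYFP libraries. The log2 fold change was 0.33 (SE 0.0910, 95% confidence interval 0.13 to 0.53, edgeR adjusted p = 0.155). Without EYFP 1 it was 0.41 and passed (edgeR adjusted p = 0.0342), as it also did by the DESeq2 Wald test (adjusted p = 0.0493). These were the only 2 of the 17 alternative analyses in which Tlr1 passed. With the choroid plexus covariate its log2 fold change was 0.21 (edgeR adjusted p = 0.534). Per 1000 microglia marker counts Tlr1 did not overlap between the groups, at 1.81 to 2.42 in EYFP against 2.51 to 2.70 in ATG7. The fit scaled to these markers gave a log2 fold change of 0.28 for Tlr1 (edgeR adjusted p = 0.674).

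Tlr6 (ENSMUSG00000051498, chromosome 5, 64952031 to 64960097) was at 41.6, 36.7, 45.4 and 36.4 CPM in EYFP 1 to 4 and at 39.5, 42.6 and 45.3 CPM in ATG7 1 to 3. All 3 ATG7 libraries lay inside the EYFP range, and the log2 fold change was 0.09 (95% confidence interval -0.12 to 0.29, edgeR adjusted p = 0.783). A fold of more than 1.22 either way was outside this interval. The log2 fold change was 0.15 without EYFP 3, 0.03 without ATG7 3 and -0.05 with the choroid plexus covariate. Tlr1 and Tlr6 are close copies: 454 of the 2976 windows of 50 bases in the longest coding transcript of Tlr1 are also in Tlr6, with an identical run of 229 bases. The handling of reads that match both is not given in the sources used here, so how counts were split between them is uncertain. Tlr2 had no such window in any other gene.

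The ratio of Tlr2 to its partners was compared by an exact permutation test over the 35 ways to assign the libraries to groups, and both are among 5 partner ratios that were chosen after seeing the data. The smallest p this test can give is 0.0286. EYFP 1 to 4 had 1.91, 2.08, 2.00 and 2.06 counts of Tlr2 per count of Tlr1, while ATG7 1 to 3 had 2.26, 2.36 and 2.54. Per count of Tlr6, EYFP 1 to 4 had 2.82, 2.84, 2.21 and 2.93, while ATG7 1 to 3 had 3.45, 3.97 and 3.87. Neither ratio overlapped between the groups (exact permutation p = 0.0286 each, two-sided, 0.0714 after Benjamini-Hochberg adjustment over the 5). The ratio to Tlr6 was 0.49 higher on the log2 scale in ATG7 and the ratio to Tlr1 was 0.24 higher.

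**Figure D2:**
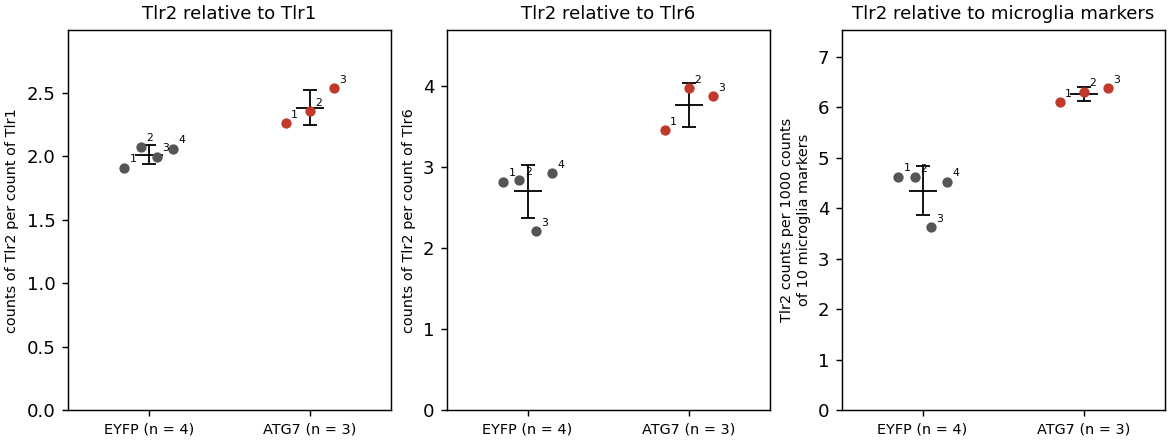
Counts of Tlr2 per count of Tlr1 (left), per count of Tlr6 (middle) and per 1000 counts of 10 microglia markers (right) in each library, with numbered points for EYFP (grey, n = 4) and ATG7 (red, n = 3) and a bar for the mean ± SD. In each panel the ATG7 libraries lie above the EYFP libraries, at 2.26 to 2.54 against 1.91 to 2.08, 3.45 to 3.97 against 2.21 to 2.93, and 6.10 to 6.38 against 3.63 to 4.62.

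TLR4 binds bacterial lipopolysaccharide together with MD-2, the product of Ly96, and CD14 hands the ligand to that pair. None of these 3 genes passed the test. Tlr4 (ENSMUSG00000039005, chromosome 4, 66827584 to 66930284) was at 99.8, 80.4, 96.3 and 86.5 CPM in EYFP 1 to 4 and at 96.1, 103 and 104 CPM in ATG7 1 to 3, with EYFP 1 and EYFP 3 above ATG7 1. Its log2 fold change was 0.15 (95% confidence interval -0.03 to 0.34, edgeR adjusted p = 0.521), and it was 0.02 with the choroid plexus covariate. Cd14 (ENSMUSG00000051439, chromosome 18, 36725067 to 36726798) was at 213, 189, 256 and 203 CPM in EYFP 1 to 4 and at 199, 212 and 241 CPM in ATG7 1 to 3, with the highest value in EYFP 3. Its log2 fold change was 0.01 (95% confidence interval -0.23 to 0.25, edgeR adjusted p = 0.979) and 0.10 without EYFP 3, and its sign differed between scalings (-0.0079 by library size alone).

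Ly96 (ENSMUSG00000025779, chromosome 1, 16688051 to 16709611) had the lowest CPM of the 9, between 9.18 and 10.8 in EYFP and between 10.6 and 12.8 in ATG7. EYFP 1 lay above ATG7 1 and 2, and the log2 fold change was 0.20 (95% confidence interval -0.05 to 0.46, edgeR adjusted p = 0.541). With the choroid plexus covariate it was 0.11, and without ATG7 3 it was 0.10. The ratio of Tlr4 to Ly96 counts was 9.17 ± 0.280 (n = 4, SD) in EYFP and 8.92 ± 0.785 (n = 3, SD) in ATG7 (exact permutation p = 0.629). That of Tlr4 to Cd14 was 0.424 ± 0.0380 (n = 4, SD) and 0.467 ± 0.0295 (n = 3, SD) (exact permutation p = 0.143). Neither test passed, at a smallest possible p of 0.0286.

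CD180 resembles TLR4 outside the cell, lacks its signalling domain, and is carried to the surface with MD-1, the product of Ly86. Cd180 (ENSMUSG00000021624, chromosome 13, 102693558 to 102739629) was the most abundant of the 9 by CPM, at 271, 243, 268 and 271 CPM in EYFP 1 to 4 and at 248, 360.3 and 355 CPM in ATG7 1 to 3. ATG7 1 lay inside the EYFP range and ATG7 2 and 3 well above it. The log2 fold change was 0.29 (SE 0.121, 95% confidence interval 0.02 to 0.55, edgeR adjusted p = 0.380). It was 0.44 without ATG7 1, still short of the threshold (edgeR adjusted p = 0.0539), and 0.12 with the choroid plexus covariate.

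Ly86 ranged from 357 to 441 CPM in EYFP and from 402 to 532 CPM in ATG7 (log2 fold change 0.22, edgeR adjusted p = 0.471). The ratio of Cd180 to Ly86 counts was 0.653 ± 0.0781 (n = 4, SD) and 0.677 ± 0.0662 (n = 3, SD), a difference smaller than their SD (exact permutation p = 0.629). B cells also express Cd180, and all 4 B cell markers that passed the filter overlapped between the groups. Cd79a, which encodes a part of the B cell receptor, was at 0.273 to 0.436 CPM in EYFP and 0.237 to 0.495 CPM in ATG7. An exon of Mast4 on the opposite strand shares 182 bases with Cd180. As the strand setting of the counting is not given in the sources used here, reads there cannot be assigned to either gene with certainty.

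TLR5, the receptor for bacterial flagellin, was the exception in direction. Tlr5 (ENSMUSG00000079164, chromosome 1, 182954788 to 182976044) was at 25.2, 20.1, 29.2 and 24.3 CPM in EYFP 1 to 4 and at 16.8, 25.9 and 22.8 CPM in ATG7 1 to 3. The groups overlapped, and the log2 fold change was -0.17 with the widest interval of the 9 (95% confidence interval -0.52 to 0.17, edgeR adjusted p = 0.725). Its size varied with the analysis, from -0.02 without ATG7 1 and -0.09 without EYFP 3 to -0.32 without ATG7 2 and -0.46 with the choroid plexus covariate.

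MyD88 links all surface Toll-like receptors, and the receptors of the IL-1 family, to IRAK kinases. Myd88 (ENSMUSG00000032508, chromosome 9, 119335934 to 119341411) was at 43.2, 39.4, 42.6 and 37.1 CPM in EYFP 1 to 4 and at 44.7, 45.3 and 52.0 CPM in ATG7 1 to 3. The groups did not overlap, but the lowest ATG7 library was close to EYFP 1 and the gene did not pass. The log2 fold change was 0.22 (SE 0.0827, 95% confidence interval 0.04 to 0.40, edgeR adjusted p = 0.304), and it was 0.14 both with the choroid plexus covariate and without ATG7 3. Exons of Acaa1a on the opposite strand share 290 of the 2576 exonic bases of Myd88, and Acaa1a was at 101 ± 2.36 CPM (n = 4, SD) and 102 ± 3.00 CPM (n = 3, SD). Per 1000 microglia marker counts Myd88 overlapped between the groups, at 1.54 to 1.75 against 1.69 to 2.00.

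**Figure D3:**
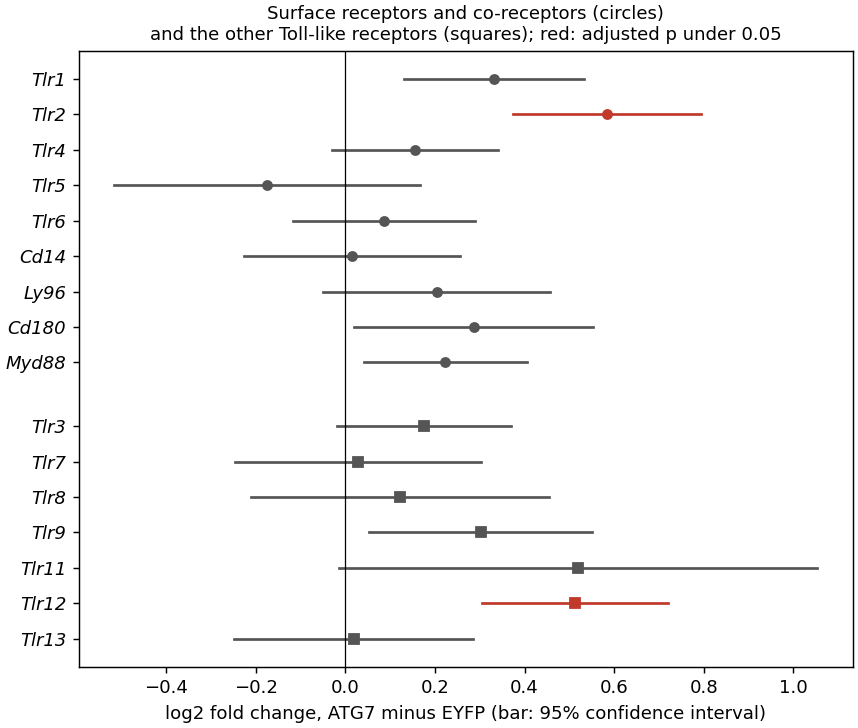
Log2 fold change of ATG7 over EYFP with its 95% confidence interval for the 9 surface receptor, co-receptor and adaptor genes (circles) and the 7 other Toll-like receptors (squares), from the edgeR fit over 19199 genes. Tlr2 (0.58) and Tlr12 (0.51), in red, had an adjusted p under 0.05, and Tlr5 (-0.17) is the only gene shown with a negative value.

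Per kilobase of exon, with the exons of all annotated transcripts of a gene merged, the order of the levels in EYFP was Cd14, Cd180, Tlr2, Tlr4, Tlr1, Myd88, Tlr6, Ly96 and Tlr5. The merged length was 4509 bases for Cd180 and 1021 for Ly96, against 2650 and 632 in their longest coding transcripts. The order by that other length was not computed and can differ. Cd14 was at 124 ± 16.6 CPM per kilobase (n = 4, SD), Cd180 at 58.4 ± 3.09, Tlr2 at 35.5 ± 2.40 and Tlr5 at 5.16 ± 0.779. Neighbours whose ranges over the EYFP libraries overlapped were Tlr4 and Tlr1, Tlr1 and Myd88, and Tlr6 and Ly96. In ATG7, the range of Tlr2 (53.2 ± 6.98 CPM per kilobase, n = 3, SD) overlapped that of Cd180 (71.2 ± 14.0), as it did not in EYFP. Such ranges ignore that both genes were measured in each library, and the order within single libraries was not compared.

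Within groups, some of the 9 genes varied together across the 7 libraries. As a description, Pearson's r of deviations of log2 CPM from the group mean was 0.94 for Ly96 and Myd88, 0.93 for Tlr6 and Cd14, 0.89 for Tlr1 and Tlr2, and 0.86 both for Tlr5 and Cd180 and for Tlr2 and Cd180. It was lowest for Tlr1 with Cd14 (0.14) and Tlr2 with Cd14 (0.23), and above 0 for each of the 36 pairs. All pairs were read from the same 7 libraries. By the same measure over 11779 genes with a mean of at least 5 CPM, those most like Tlr2 were Hpf1 (0.99), AW554918 (0.98) and Ttc7b (0.98). They are the highest of 11779 values from only 7 libraries, and whether such values arise by chance was not tested.

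Among the other Toll-like receptors, Tlr12, which binds profilin of protozoan parasites in mice, was the 1 of 7 that passed, where 0.688% of all genes rose. It was at 36, 33.7, 39.0 and 34.1 CPM in EYFP 1 to 4 and at 44.2, 51.1 and 57.5 CPM in ATG7 1 to 3, with no overlap. Its log2 fold change was 0.51 (SE 0.0944, edgeR adjusted p = 0.0336), and it lost its call without EYFP 2 (edgeR adjusted p = 0.0696), EYFP 4 (0.122), ATG7 2 (0.141) or ATG7 3 (0.180). Without EYFP 3 its log2 fold change was 0.55 (edgeR adjusted p = 0.0347). The other 6 had log2 fold changes from 0.02 for Tlr13, a sensor of bacterial RNA, to 0.52 for Tlr11. At an unadjusted p under 0.05 (edgeR), 2 of the 7, Tlr9 and Tlr12, were higher, against 6.27% of all genes. In 2 of them, Tlr11 and Tlr12, every ATG7 library was above every EYFP library, as for 6.33% of all genes. The median of the 7 was 0.18, next to 0.20 for the 9 surface genes, and the difference between these sets was not tested.

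Of the genes that fold and carry the receptors to the membrane, 0 of 8 passed (edgeR quasi-likelihood test, 2 higher and 0 lower at an unadjusted p under 0.05, against 6.27% and 5.71% of all genes). The smallest p belonged to Hsp90b1, the endoplasmic reticulum chaperone on which folding of the surface receptors depends. It was at 647 to 719 CPM in EYFP and at 1062, 819 and 916 CPM in ATG7 1 to 3, without overlap. Its log2 fold change of 0.44 did not pass (edgeR adjusted p = 0.0836). Hsp90b1 passed in 3 of the 17 alternative analyses, among them DESeq2 (adjusted p = 0.00122) and limma-voom (adjusted p = 0.0492). It passed in 0 of the 7 fits that left out 1 library (edgeR adjusted p from 0.103 to 0.288). Cnpy3, its co-chaperone for these receptors, had a log2 fold change of 0.08 (edgeR adjusted p = 0.781).

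Among 20 adaptors and proximal kinases, 0 passed (edgeR quasi-likelihood test, 4 higher and 1 lower at an unadjusted p under 0.05, against 6.27% and 5.71% of all genes). Tirap, the bridge from TLR2 and TLR4 to MyD88, had a log2 fold change of -0.05 (edgeR adjusted p = 0.898), and Ticam2, the bridge from TLR4 to TRIF, 0.10 (edgeR adjusted p = 0.749). The smallest p belonged to Pik3ap1, an adaptor between these receptors and phosphoinositide 3-kinase. It was at 246, 223, 230.4 and 224 CPM in EYFP 1 to 4 and at 269, 335 and 328 CPM in ATG7 1 to 3 (log2 fold change 0.43, edgeR adjusted p = 0.0610). Its groups did not overlap, and the median of the list was 0.04.

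Of 8 other surface co-receptors and ligand carriers 0 passed (edgeR quasi-likelihood test, 1 higher and 1 lower at an unadjusted p under 0.05, against 6.27% and 5.71% of all genes). The smallest p belonged to Rftn1, a lipid raft protein (log2 fold change 0.28, edgeR adjusted p = 0.252). Of 7 genes of the IL-1 receptor family, which also signals through MyD88, 0 passed (edgeR, 1 higher and 1 lower at an unadjusted p under 0.05, against the same shares of all genes). There the smallest p belonged to Il1rl1, the receptor for IL-33, at 11.8 to 15.1 CPM in EYFP and 8.19 to 10.7 CPM in ATG7 (log2 fold change -0.52, edgeR adjusted p = 0.120).

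Among 15 negative regulators, 1 rose and 0 fell, where 0.688% of all genes rose. Trim30a, which limits signalling from these receptors and belongs to an interferon-inducible family, was at 112, 85.1, 82.0 and 92.8 CPM in EYFP 1 to 4 and at 129, 158 and 152 CPM in ATG7 1 to 3. Its log2 fold change was 0.65 (SE 0.113, edgeR adjusted p = 0.0262), and it shares 243 of 3722 windows of 50 bases with its relative Trim30d, so its counts are uncertain. It lost its call without EYFP 2, EYFP 4, ATG7 2 or ATG7 3, with an adjusted p of up to 0.134. Without EYFP 3 its log2 fold change was 0.59 (edgeR adjusted p = 0.0462).

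Of 26 genes listed here as early targets of the receptors, 2 rose and 0 fell, where 0.688% of all genes rose. At an unadjusted p under 0.05 (edgeR), 15 were higher, against 6.27% of all genes, and the median log2 fold change was 0.34. The list was chosen with earlier results of these data known, so its counts beside the shares of all genes are a description, not a test. Acod1, which makes itaconate, was at 1.40 to 2.91 CPM in EYFP and at 4.50, 8.30 and 6.54 CPM in ATG7 1 to 3 (log2 fold change 1.49, SE 0.261, edgeR adjusted p = 0.0272). Il12b, a cytokine subunit, was the other, with a log2 fold change of 1.70 (edgeR adjusted p = 0.0293). Leaving out EYFP 4, ATG7 2 or ATG7 3 ended both calls, as did leaving out EYFP 2 for Acod1 and ATG7 1 for Il12b, with an adjusted p of up to 0.143. Without EYFP 3 the log2 fold change was 1.62 for Acod1 (edgeR adjusted p = 0.0293) and 1.47 for Il12b (edgeR adjusted p = 0.0345). Nfkbia, the NF-kB inhibitor induced by these receptors, was at 106 ± 14.2 CPM (n = 4, SD) and 108 ± 18.7 CPM (n = 3, SD). The log2 fold change was above 0 in 22 of the 26 and below 0 in 4, and was largest for Ccl5 (2.00, edgeR adjusted p = 0.1625). In 12 of the 26 every ATG7 library was above every EYFP library, against 6.33% of all genes. A list of 10 genes that respond to tissue dissociation, such as Fos, summed to 2393 to 3737 CPM in EYFP and 3148 to 3456 CPM in ATG7. All 10 had a log2 fold change above 0, with a median of 0.21 and 0 passing the test (edgeR, 0 at an unadjusted p under 0.05), and their part in the results for this list and for the 9 genes was not tested. With the choroid plexus markers as a covariate, Tlr12, Trim30a, Acod1 and Il12b did not pass (edgeR adjusted p from 0.168 to 0.232). Their log2 fold changes in that fit were 0.40, 0.51, 1.16 and 1.77.

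**Figure D4:**
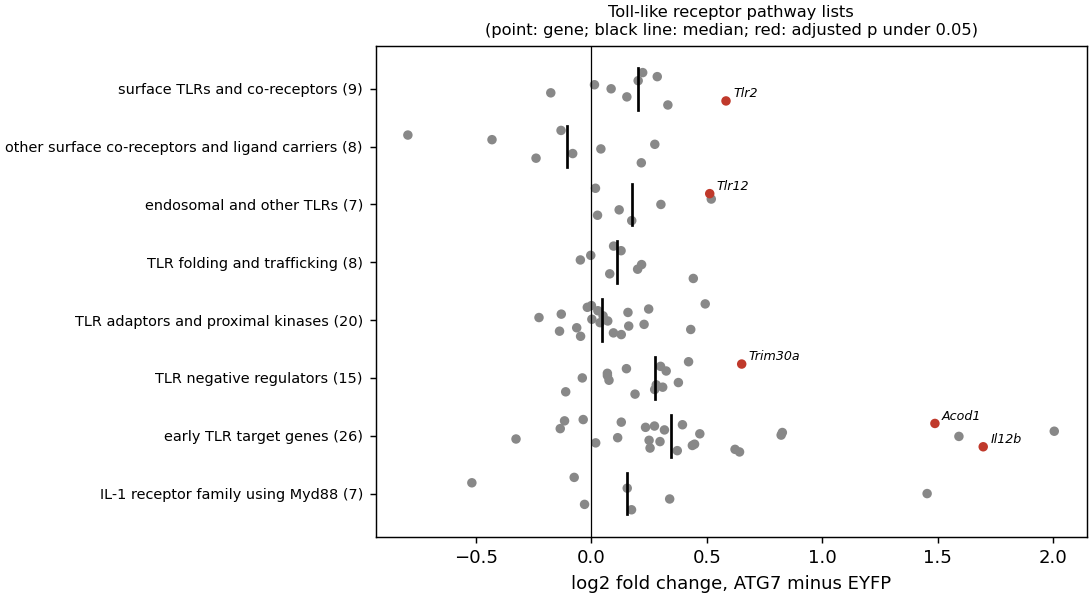
Log2 fold change of ATG7 over EYFP for each gene tested (points) in 8 Toll-like receptor pathway lists, with the number of genes in brackets and the list median as a black line. Red points, with adjusted p under 0.05, are Tlr2, Tlr12, Trim30a, Acod1 and Il12b, and list medians run from -0.11 for other co-receptors and ligand carriers to 0.34 for early target genes.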

How the data were processed

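The authors deposited raw read counts per Ensembl gene for 7 libraries. The submitters' processing notes name fastp 0.20.1, HISAT2 2.0.5, featureCounts and the builds mm10 and GRCm38. The annotation, the strand setting and the handling of shared reads are not given in the sources used here. GENCODE M21 (GRCm38) gave symbols to 55141 of 55401 identifiers. Counts were scaled by TMM, filtered with filterByExpr and fitted with edgeR 4.0.16 in R 4.3.3 (quasi-likelihood, robust, no covariate, Benjamini-Hochberg over 19199 genes). DESeq2 1.42.0, limma 3.58.1, other scalings and filters, a choroid plexus covariate and leaving out each library were alternatives. A floor of 3 counts is 0.0543 to 0.0835 CPM and covers counting error only. Libraries of 1 group differed by 21.0 to 45.4 times sampling noise (chi-square per degree of freedom), so none was a repeat deposit of another. Whether they came from separate mice was not tested. The 9 genes and all lists were chosen with earlier results of these data known. Named are the 9 genes, 5 direct partners and, in each pathway list, the genes that passed or the 1 with the smallest p. Other names were chosen after their values were seen. RefSeq promoter windows came from GRCm38.p6.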

Additional observations from a re-analysis of the deposited data

Results flagged for a closer look

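Among 18 genes compared within the 4 EYFP libraries by Dixon's criterion, 2 had a library that lay far from the rest, and chance gives 0.9 of 18. Tlr1 in EYFP 1 was at 61.2 CPM, against 50.2 to 51.7 CPM in the other 3. Cd180 in EYFP 2 was at 243 CPM, against 268 to 271 CPM in the other 3.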

How the results depend on the processing

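The 145 genes that changed became 297 with no filter, 585 by DESeq2 (407 higher, 178 lower), 10 with the choroid plexus covariate and 59 when scaled to microglia markers, and 28 to 277 when leaving out 1 library (277 without EYFP 1, 94 without EYFP 2, 30 without EYFP 4, 28 without ATG7 2 and 30 without ATG7 3). Of the 9 genes, 1 changed. This number was 2 by DESeq2 (Tlr1 and Tlr2), 0 with the choroid plexus covariate and 0 when scaled to microglia markers. In the covariate and marker fits 3 and 2 of the 9 had an unadjusted p under 0.05 (edgeR), against 1668 and 1290 of all 19199 genes. Leaving out 1 library gave 0 to 2 (2 without EYFP 1, and 0 without EYFP 4, ATG7 2 or ATG7 3). Without EYFP 4, ATG7 2 or ATG7 3, edgeR gave 2, 3 and 2 of the 9 at an unadjusted p under 0.05. Among all genes in those fits it gave 1686 of 18985, 1754 of 19459 and 1638 of 19532. With the replicate block, 0 genes changed in all and 0 of the 9 (edgeR, 1256 and 2 at an unadjusted p under 0.05). Same-numbered libraries did not deviate together (r of -0.06, -0.18 and 0.07). With so few pairs this cannot decide whether the numbers pair the libraries. The sign of Cd14 turned by library size alone (-0.0079), limma-voom (-0.0137), the replicate block (-0.0056), the choroid plexus covariate (-0.1278) and scaling to microglia markers (-0.0236), with a range of -0.0728 to 0.1026 when leaving out 1 library. The choroid plexus covariate also turned Tlr6 (-0.0489), Ticam2 (-0.0296) and Cnpy3 (-0.0043), and Tirap ranged from -0.1219 to 0.0055 when leaving out 1 library. Tlr2 was higher in ATG7 in all 17 alternatives and passed in 11, with an adjusted p from 6.75e-06 by DESeq2 to 0.320 with the replicate block. The cause of these shifts was not tested. Both the number of libraries and, for low genes such as Il12b (0.310 to 0.765 CPM in EYFP), the depth limit the precision.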
